A study of Oryza sativa with 4 samples.

Results

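The rice loci of PsbS and the xanthophyll cycle were examined in flag leaves of the dwarf mutant d1 and of the wild type (WT). They are 7 loci taken by identifier from a deposited gene table of 35667 rows. They comprise 2 loci of PsbS (PsbS1 and PsbS2), 1 of violaxanthin de-epoxidase, 1 of zeaxanthin epoxidase and 3 of beta-carotene hydroxylase. All 7 had been tested, among 23672 tested rows, and all 7 stood above 1 FPKM in both genotypes, so no locus was lost to a filter. The names came with the list of identifiers. The gene table held no names, and the reference table used here matched 0 of the 7 identifiers, so the pairing of name and locus was not checked against an annotation.

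The d1 group carried the allele d1-1 of RGA1, the gene of the alpha subunit of the heterotrimeric G protein, and the WT group was the japonica cultivar TC65. Each genotype had 2 libraries of RNA from flag leaf blades, 4 in all. Plants of both genotypes stood in single pots in a greenhouse with 16 h days averaging 30 °C and peaking at 35 °C, 8 h nights at 25 °C, and an average light intensity of 500 μmol per square metre and second. Their age is labelled as 2 months in one place and as 100 days of growth in another. The mutant group rests on a single allele.

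Leaves that absorb more light than photosynthesis can use release the excess as heat. PsbS, a protein of the thylakoid membrane next to photosystem II, senses the acid that builds up in the thylakoid lumen and switches this release on within seconds to minutes. The xanthophyll cycle adjusts it more slowly: in strong light violaxanthin de-epoxidase converts violaxanthin through antheraxanthin to zeaxanthin, which favours heat release, and in weak light zeaxanthin epoxidase turns zeaxanthin back. Beta-carotene hydroxylases make zeaxanthin from beta-carotene and so feed the pool on which the cycle acts.

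The deposited table gives 1 FPKM value per genotype (fragments relative to transcript length and to the number mapped), combined over the 2 libraries. No value per library is given, so no standard deviation can be set beside any level, and the depth per library is known only from the roughly 40000000 single-end reads of 150 bp that the labels state. The test is that of the authors' deposited table. A locus is said to have risen, fallen or been called where the authors' q-value was under 0.05, and log2 ratios are of d1 over WT with no pseudocount. That q-value was more lenient than a Benjamini-Hochberg adjustment recomputed over the tested genes. At the smallest p of the authors' deposited table, q was 0.000186 and the recomputed value 0.000882. The FPKM sum was higher in d1, by 0.27 on the log2 scale, whereas the median log2 ratio of the tested genes was -0.02. A ratio is therefore also given with both FPKM sums set equal, which lowers every log2 ratio by 0.27. Leaving the 100 most abundant genes out of the sums reduced this offset to 0.03.

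RGA1 itself (OS05G0333200) was read at 17.3 FPKM in d1 and 20.7 FPKM in WT and was not called (the authors' deposited table gives q = 0.296). The value covers the whole locus and does not show the lesion. As leaf markers, 3 loci entered as rubisco small subunits spanned 3301 to 35243 FPKM in d1 and 1757 to 21644 FPKM in WT. Of these, 1 was called higher, against 7.24% of all tested genes and 17.9% of the tenth of highest mean FPKM. The call was kept with a Benjamini-Hochberg adjustment recomputed over the tested genes, and lost with q under 0.01 or at least 2-fold required. The root marker was listed at 0 in both genotypes, and the 1 glutelin locus found in the table, a seed marker, was read at 0.261 FPKM in d1 and 0.226 FPKM in WT. All 3 loci entered as secondary wall cellulose synthases, markers of xylem and fibre cells, were called lower, at 0.599 to 1.93 FPKM in d1 and 1.54 to 8.47 FPKM in WT. Of all tested genes, 12.1% were called lower. With q under 0.01, or with a Benjamini-Hochberg adjustment recomputed over the tested genes, 1 of these 3 was called. The part of such shifts in the results below was not tested. In RNA from whole leaf blades, fewer cells of a type and less RNA per cell cannot be told apart.

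Of the 7 loci, 1 rose in d1, 1 fell and 5 did not pass the test. The riser was a beta-carotene hydroxylase locus, OS10G0533500, and the faller was PsbS2. Of all tested genes, 19.3% were called, 7.24% higher and 12.1% lower. Read against that background, 2 called among 7 is not a result about the loci as a group, and the account below rests on single loci. The same 2 loci were called with q under 0.01 (12.0% of all tested genes), with a Benjamini-Hochberg adjustment recomputed over the tested genes (14.3%) and with at least 2-fold required (8.98%). Both had the smallest deposited p and folds above 2, so none of these settings could have removed them. The median log2 ratio of the 7 loci was 0.26, against -0.02 over all tested genes. With equal FPKM sums these medians became -0.01 and -0.29.

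**Figure D1:**
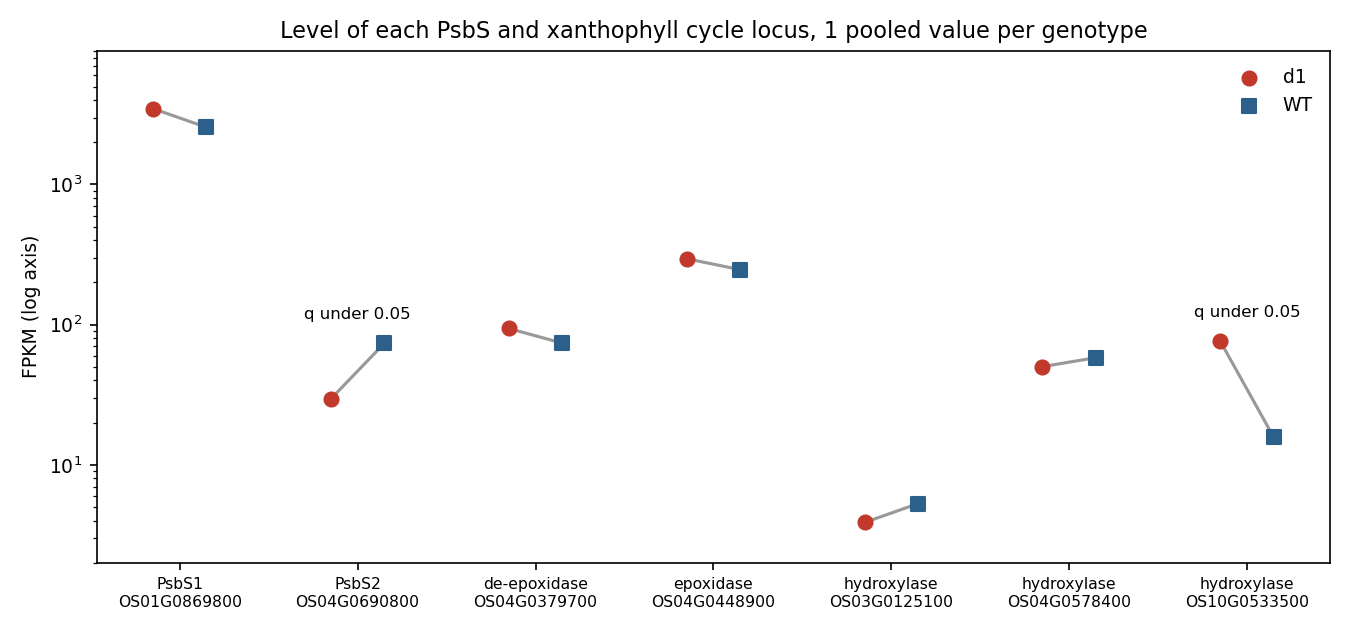
FPKM (log axis) of each of the 7 loci in d1 (red circles) and WT (blue squares), 1 value per genotype over 2 libraries, joined by a line. PsbS1 stood far above the rest in both genotypes, PsbS2 was lower in d1 and hydroxylase OS10G0533500 was higher in d1. These 2 loci had q under 0.05 in the authors' deposited table.

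The loci covered a wide span of levels. In d1, PsbS1 was followed by zeaxanthin epoxidase (295 FPKM), violaxanthin de-epoxidase (93.9 FPKM), hydroxylase OS10G0533500 (76.0 FPKM), hydroxylase OS04G0578400 (50.2 FPKM), PsbS2 (29.6 FPKM) and hydroxylase OS03G0125100 (3.88 FPKM). The first 3 and the last kept their places in WT, whereas PsbS2 followed violaxanthin de-epoxidase there, at 73.6 and 73.9 FPKM, and OS10G0533500 stood below OS04G0578400. Without values per library, it is not known which neighbours in this order differ beyond the spread between libraries.

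PsbS1 (OS01G0869800, on chromosome 1 by its identifier) was among the most abundant leaf transcripts. It was read at 3478 FPKM in d1 and 2559 FPKM in WT, which ranks it 47th of the tested genes in d1 and 49th in WT. The d1 value was 1.36-fold the WT value, a log2 ratio of 0.44 (0.17 with equal FPKM sums), and did not pass the test (p = 0.0808 and q = 0.154 in the authors' deposited table). A change of this size was below any that the deposited test called among the 100 genes of highest mean level. Among the 100 genes of highest mean level, 20 had an absolute log2 ratio between 0.25 and 0.5, and 0 of these were called. The smallest absolute log2 ratio called there was 0.52. The missed threshold therefore does not show that PsbS1 was alike in the 2 genotypes.

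PsbS2 (OS04G0690800, chromosome 4) was a minor transcript beside PsbS1 and fell in d1. It was read at 29.6 FPKM in d1 and 73.6 FPKM in WT, so the d1 level was 2.49-fold lower, a log2 ratio of -1.31 (-1.59 with equal FPKM sums). The test statistic was -4.76, with p = 5e-05 and q = 0.000186 in the authors' deposited table. That p is the smallest in the table and is shared by 1342 tested genes. A lower log2 ratio was found in 6.68% of all tested genes, and in 54 of the 2367 genes of its level group, 1 of 10 groups of equal size formed from the tested genes by mean FPKM. In that group, 12.2% of genes were called lower.

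The balance between the PsbS loci thus differed between the genotypes. PsbS2 made up 0.843% of the PsbS sum in d1 and 2.80% in WT, and PsbS1 exceeded PsbS2 118-fold in d1 and 34.8-fold in WT. The summed PsbS level was 3507 FPKM in d1 and 2632 FPKM in WT, a log2 ratio of 0.41 (0.14 with equal sums), so the fall of PsbS2 by 44.0 FPKM was small beside the PsbS1 difference of 919 FPKM, which itself did not pass. The difference between the log2 ratios of the 2 loci could not be tested without values per library. How the authors assigned reads that match both loci is not stated.

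The cycle enzymes were read higher in d1 in the deposited values without passing, and the sign of zeaxanthin epoxidase depended on the scaling. Violaxanthin de-epoxidase (OS04G0379700, chromosome 4), the enzyme of the lumen that forms zeaxanthin in strong light, was read at 93.9 FPKM in d1 and 73.9 FPKM in WT. Its log2 ratio was 0.35 (0.08 with equal FPKM sums), with p = 0.0649 and q = 0.128 in the authors' deposited table. Zeaxanthin epoxidase (OS04G0448900, chromosome 4), which works in the opposite direction and also provides epoxidized precursors of abscisic acid, was read at 295 FPKM in d1 and 247 FPKM in WT. Its log2 ratio was 0.26 and changed sign with equal FPKM sums, to -0.012, with p = 0.224 and q = 0.345 in the authors' deposited table. The smallest absolute log2 ratio called in the level group of highest mean FPKM, to which both belong, was 0.43, so changes of their size were not called in any gene of that group.

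The ratio of de-epoxidase to epoxidase transcript, the forward over the backward enzyme of the cycle, was nearly the same in both genotypes, at 0.318 in d1 and 0.299 in WT. The scale offset between the genotypes cancels in this ratio. No interval can be given for it. Transcript levels do not show the activity of either enzyme, which depends on light, lumen acidity and ascorbate in the case of the de-epoxidase.

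**Figure D2:**
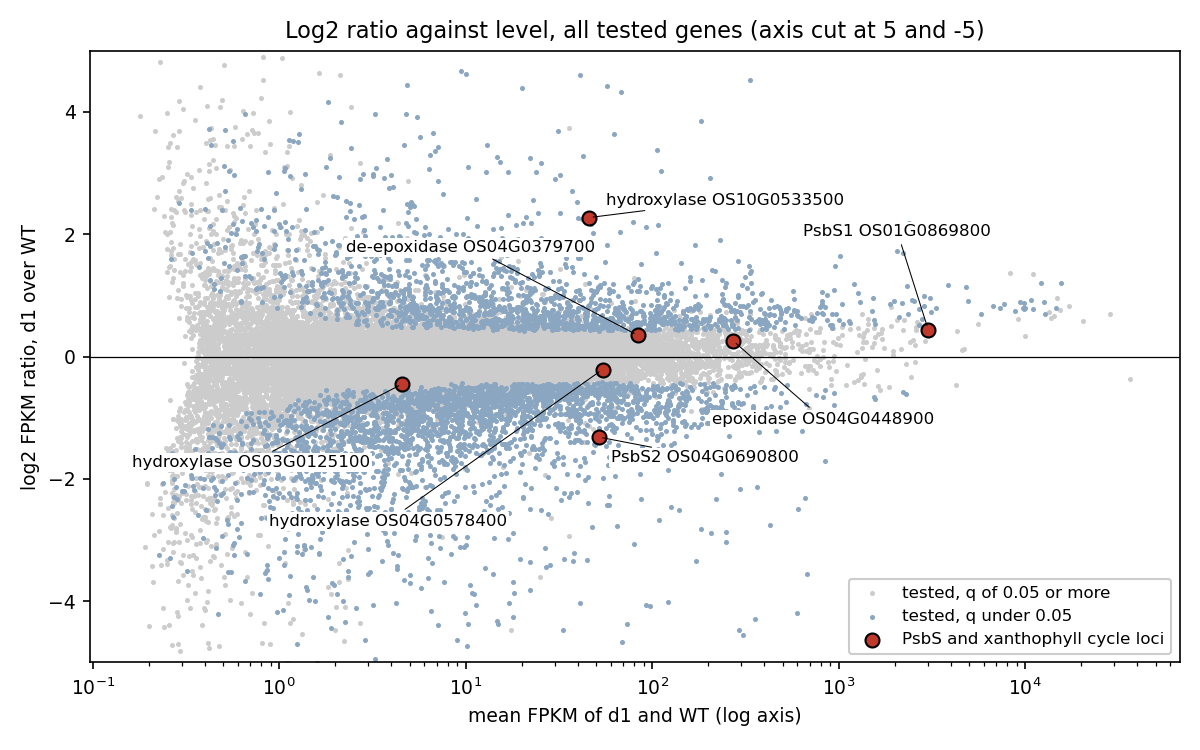
Log2 FPKM ratio of d1 over WT against mean FPKM (log axis) for the tested genes with a ratio between -5 and 5. Grey points had q of 0.05 or more, blue points had q under 0.05, and the 7 loci are the large red points. Hydroxylase OS10G0533500 and PsbS2 lie outside the grey band, at 2.27 and -1.31. The other 5 lie inside it.

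Among the hydroxylases, a single locus was called. OS10G0533500 (chromosome 10) was read at 76.0 FPKM in d1 and 15.7 FPKM in WT. It rose 4.83-fold, a log2 ratio of 2.27 (2.00 with equal FPKM sums), with a test statistic of 8.35, p = 5e-05 and q = 0.000186 in the authors' deposited table. A higher log2 ratio was found in 276 tested genes, or 1.17% of them, and in 10 of the 2367 genes of its level group, where 9.84% were called higher. By level it stood above 92.0% of the tested genes in d1 and above 66.7% in WT.

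The other hydroxylase loci did not pass. OS04G0578400 (chromosome 4) was read at 50.2 FPKM in d1 and 58.1 FPKM in WT, a log2 ratio of -0.21 (-0.48 with equal FPKM sums), with q = 0.390 in the authors' deposited table. OS03G0125100 (chromosome 3) was the least abundant of the 7 loci, at 3.88 FPKM in d1 and 5.28 FPKM in WT. Its log2 ratio was -0.45 (-0.72 with equal FPKM sums), with q = 0.282 in the authors' deposited table. The smallest absolute log2 ratios called in the level groups of these loci were 0.42 and 0.48, so both values lay below any change called at their level.

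The make-up of the hydroxylase pool differed accordingly. OS10G0533500 led in d1 with 58.4% of the hydroxylase FPKM sum, against 19.9% in WT. OS04G0578400 made up 38.6% of the sum in d1 and 73.4% in WT, where it was the leading locus. OS03G0125100 contributed 2.98% in d1 and 6.68% in WT. The sum over the 3 loci was 130 FPKM in d1 and 79.1 FPKM in WT, a ratio of 1.64. Without OS10G0533500 the sum of the other loci was 54.1 FPKM in d1 and 63.4 FPKM in WT, so the higher sum came from this locus. As for PsbS, the handling of reads shared by related loci is not stated.

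**Figure D3:**
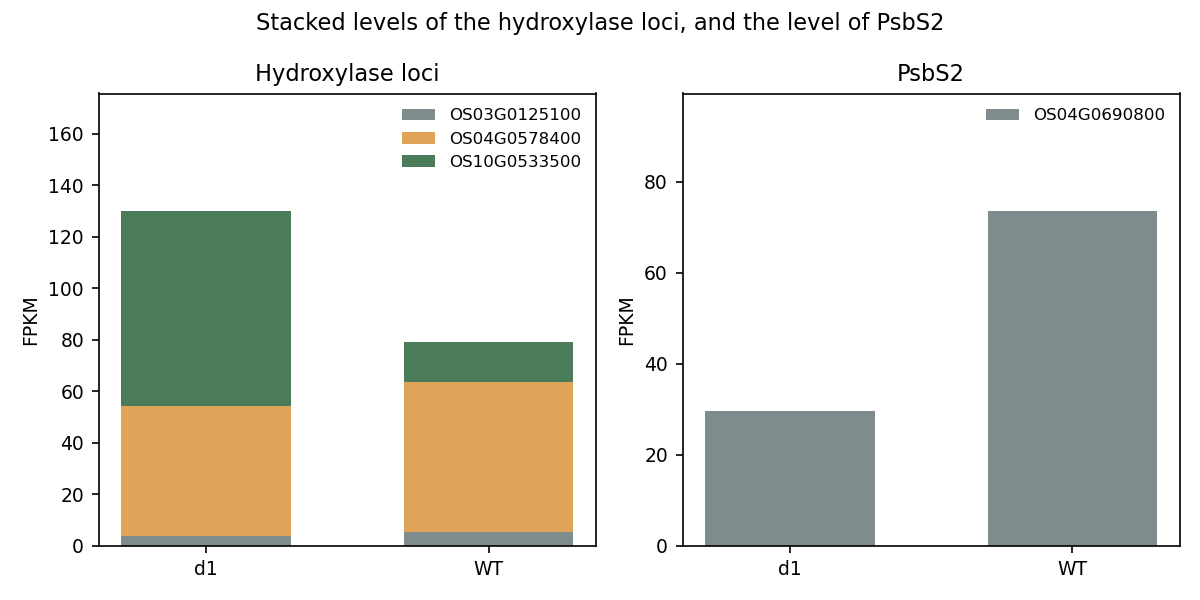
Left, FPKM of the 3 hydroxylase loci, stacked, in d1 and WT; right, FPKM of PsbS2 in d1 and WT. Each bar is 1 value over 2 libraries, with no error available. OS10G0533500 takes 58.4% of the hydroxylase bar in d1 and 19.9% in WT, and PsbS2 stands at 29.6 FPKM in d1 and 73.6 FPKM in WT.

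Relative to the cycle enzymes, the summed hydroxylase transcript was more abundant in d1. The hydroxylase sum was 0.440 of the epoxidase level in d1 and 0.320 in WT, and 1.39 times the de-epoxidase level in d1 and 1.07 times in WT. Against the sum of 2 loci entered as cytochrome P450 ring hydroxylases of the lutein branch, it was 1.75 times in d1 and 1.01 times in WT. These ratios carry no test, and their direction against the cycle enzymes rests on OS10G0533500. Without this locus the hydroxylase sum was lower in d1 (54.1 FPKM) than in WT (63.4 FPKM), whereas both cycle enzymes were read higher in d1. The direction was then reversed.

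Other parts of the pathway were read from lists of identifiers entered from general knowledge, and no annotation was at hand to check them. Of 9 loci entered as carotenoid steps before the hydroxylases, from phytoene synthesis to ring closure, 1 rose (OS01G0581300), 1 fell (OS09G0555500) and 7 did not pass, a share near the 19.3% called over all tested genes. With at least 2-fold required, 0 of the 9 were called. Their log2 ratios ran from -0.68 to 0.61 with a median of 0.03, a narrower span than that of the 3 hydroxylase loci. The hydroxylase span was set by OS10G0533500 at 2.27, with the other loci at -0.21 and -0.45. Neither of the P450 ring hydroxylase loci passed, at log2 ratios of -0.04 and -0.12. Of 3 loci entered as epoxycarotenoid dioxygenases, which cleave epoxidized xanthophylls on the way to abscisic acid, 2 had been tested. Neither passed, and their summed level was 5.41 FPKM in d1 and 6.38 FPKM in WT.

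Transcripts of the light-harvesting proteins on which PsbS acts were read higher in d1. Of 8 loci entered as photosystem II antenna proteins, 5 were called higher, 3 missed the threshold and 0 were called lower, against 7.24% of tested genes called higher and 17.9% in the level group of highest mean FPKM, to which all 8 belong. The 5 calls became 1 with q under 0.01, and 2 with the recomputed adjustment or with at least 2-fold required. Their log2 ratios ran from 0.63 to 1.69, with a median of 0.86 (0.59 with equal FPKM sums). Their values summed to 115611 FPKM in d1 and 62916 FPKM in WT. The PsbS sum came to 3.03% of this antenna sum in d1 and 4.18% in WT, since the antenna loci had larger ratios than PsbS1. The difference between those percentages was not tested. Of 3 loci entered as cyclic electron flow and state transition proteins, which also tune the acidity of the lumen or the sharing of light between the photosystems, 1 was called higher (OS08G0526300) and 2 did not pass, with log2 ratios from 0.37 to 0.73. All 3 belong to the same level group of highest mean FPKM, where 17.9% were called higher. The call of OS08G0526300 was lost with q under 0.01, with the recomputed adjustment and with at least 2-fold required.

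**Figure D4:**
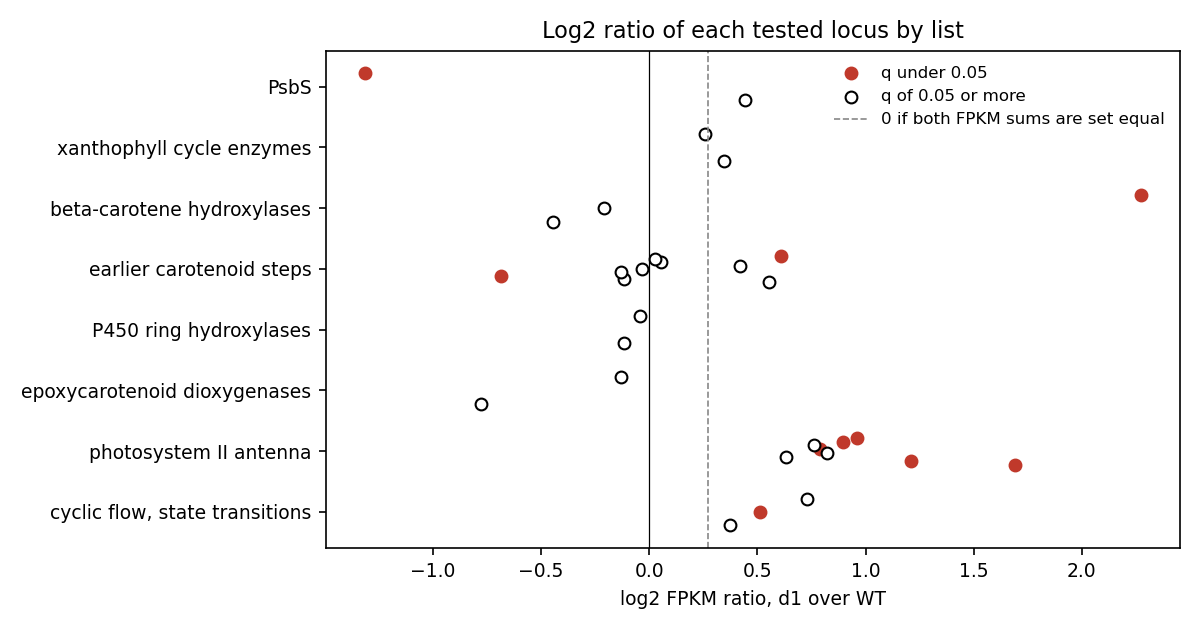
Log2 FPKM ratio of d1 over WT for each tested locus of the PsbS, cycle enzyme and hydroxylase groups and of the 5 pathway lists. Filled red points had q under 0.05 in the authors' deposited table, and the dashed line at 0.27 marks where 0 would lie with equal FPKM sums. The antenna loci all lie right of that line, and the hydroxylase and PsbS groups each hold a locus far from the others of their group.

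The position of the 7 loci was examined through their identifiers, which by convention are numbered along each chromosome. Of the 7 loci, 4 lie on chromosome 4. Among the 5 nearest tested loci on either side of each of the 7, 70 in all, 5 were called higher and 6 lower. That is 15.7%, near the 19.3% called over all tested genes. Around PsbS2, 1 of the 10 neighbouring loci was called, in the higher direction. Around OS10G0533500, 1 of 10 was called, also higher, and the log2 ratios of its neighbours ranged from -2.17 to 0.48, against 2.27 at the locus itself.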

How the data were processed

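RNA-seq had been made from 2 libraries of each genotype. FastQC, Trimmomatic, TopHat2, Cufflinks and Cuffdiff are named in the submitters' processing notes, as is the genome build IRGSP-1.0. Tool versions, parameters, annotation and library scaling are not stated there. The FPKM values were deposited by the authors as 1 value per genotype. Each gene's p-value, q-value and test statistic, a score whose sign follows d1 over WT, were also deposited by the authors. Biological replicates are labelled, but whether they were separate plants is not stated, so p-values may measure technical spread only.

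Identifiers were matched ignoring case. Log2 ratios, ranks, sums and shares were computed with Python 3.11.15 and pandas 2.3.3. Ranks and shares of called genes were taken over the 23672 tested rows, and 10 equal groups by mean FPKM gave the values at matched level. No test of its own was run, since there is 1 value per genotype. The recomputed Benjamini-Hochberg adjustment was tested on simulated data. Every one of the 7 loci was named, with RGA1, and list loci were named only where called. The loci and lists were chosen with earlier results of these data known. The share called at a given size of change was added after seeing the data. No sequence or coordinates are printed, since the reference table used here matched none of the 7 identifiers.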

Additional observations from a re-analysis of the deposited data

How the results depend on the processing

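No paired analysis was possible because each genotype had been reduced to 1 FPKM value before deposit. The planned count tests, library scalings and omission of single libraries were not run, as they too need a value per library. The calls of PsbS2 (lower) and OS10G0533500 (higher) were kept with q under 0.01 (12.0% of tested genes called) and with at least 2-fold required (8.98%). They were also kept with a recomputed Benjamini-Hochberg adjustment (14.3%, both loci at 0.000882). Each of these settings was stricter than the deposited q under 0.05, so none could add a call among the 7 loci. Nor could any remove these calls, since both loci had the smallest deposited p and folds above 2. A minimum of 1 FPKM in a genotype and the omission of repeated identifiers removed 0 of the 7 loci, so neither could change their calls. Under a scaling to equal FPKM sums the log2 ratio of zeaxanthin epoxidase (OS04G0448900) changed to -0.012, against 0.26 as deposited. No other sign changed with that scaling. The median used for centring (-0.02) and the offset without the 100 most abundant genes (0.03) were smaller in size than any log2 ratio of the 7 loci. Adding 0.1 or 1 FPKM to both genotypes cannot reverse a sign. These settings could therefore not have changed a sign. Adding 1 FPKM moved no share or ratio between loci by over 1.5 times. Higher antenna calls fell to 1 with q under 0.01 and to 2 with the recomputed adjustment or at least 2-fold. The single higher call among the cyclic flow loci became 0 under each of these, and the higher and the lower call among the earlier carotenoid steps became 0 and 0 with at least 2-fold. Over all tested genes, q under 0.01 left 972 higher and 1860 lower, and at least 2-fold left 639 and 1486. The cause was not tested. Reads behind an FPKM value are not given, so no counting error can be set beside any of the 7 loci.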
